A study of Arabidopsis thaliana with 15 samples.

Results

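The core circadian clock of Arabidopsis thaliana was followed through 10 genes, chosen by locus code as established oscillator components, by a rule that uses no measured value but with earlier results of these data known: CCA1 (AT2G46830), LHY (AT1G01060), PRR9 (AT2G46790), PRR7 (AT5G02810), PRR5 (AT5G24470), TOC1 (AT5G61380), ELF4 (AT2G40080), LUX (AT3G46640, listed under its other name PCL1), GI (AT1G22770) and FKF1 (AT1G68050). All 10 were found among the 22526 gene rows of the deposited tables, and all 10 were among the 18876 genes counted as measured, which had a mean of at least 1 CPM (a read number scaled for library size). Polyadenylated RNA was sequenced from whole 14-day-old seedlings of the wild-type accession Columbia (Col-0), raised at 22 °C in days of 16 h light and 8 h dark and moved to liquid medium with 1% sucrose at 13 days. The 5 conditions were untreated control, 20 µM abscisic acid (ABA, the hormone of water shortage, from a stock in methanol) in the medium for 1 h or 3 h, and dehydration on filter paper for 1 h or 3 h. Treatments ran in the light at 40 µmol per square metre and second. The study has 3 libraries per condition, and the tables give 1 combined column per condition, so no value below has a replicate error and the conditions could not be tested against each other. The control was taken before treatment, there is no untreated sample at 1 h or 3 h, and the sources used here do not give the hour of harvest. Treatment and time of day therefore cannot be told apart in any comparison with the control, which matters for genes that cycle through the day. Comparisons of ABA with dehydration at the same hour do not have this difference in elapsed time. They do set liquid medium against filter paper, and none of the 5 conditions is labelled as methanol alone.

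The plant clock is a ring of transcription factors that mostly repress one another. CCA1 and LHY, MYB-related factors that peak around dawn, repress evening genes through a short promoter sequence called the evening element. The pseudo-response regulators PRR9, PRR7, PRR5 and TOC1 peak one after another from morning to evening and repress CCA1 and LHY. ELF4 and LUX form the evening complex with ELF3 and repress genes such as PRR9 at night, while GI and the blue-light receptor FKF1 tie the clock to day length.

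Since these genes are known to act on each other's promoters, short sequences around their starts are shown before the values. They were read from the RefSeq TAIR10.1 genome and gene annotation, and the deposited tables themselves hold no coordinates. The window ran from 250 bases before to 50 after each annotated start, both strands were searched, and the same was done for 27443 protein-coding genes. The evening element, AAAATATCT, was present in 5 of the 10 windows, those of TOC1, PRR5, LUX, FKF1 and PRR9, against 2.82% of all windows. One element per gene is printed for the first 4, from 5′ to 3′ on the strand that reads it, with the element in capitals.
TOC1, chr5:24674802-24674830, minus strand: catcttggagAAAATATCTcatgatattt
PRR5, chr5:8358715-8358743, plus strand: tggagaaaagAAAATATCTagaaaaaatc
LUX, chr3:17182979-17183007, plus strand: tagaagatctAAAATATCTagctaactcg
FKF1, chr1:25508443-25508471, minus strand: atattccgagAAAATATCTagcctactca

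Counted along the gene from its start, the first base of these elements lay at position −151 in TOC1, −187 in PRR5, −53 in LUX and −186 in FKF1. FKF1 held another at position 1, and the PRR9 element lay downstream of the start, at position 27. In the 1000 bases before the start the element was found in 6 of 10 genes, now with ELF4 and GI and without PRR9, against 7.24% of all genes. CCA1, LHY and PRR7 held none in either window.

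The G-box, CACGTG, was found in 5 of 10 windows, those of CCA1, LHY, PRR9, PRR7 and LUX, against 7.68% of all windows. In CCA1, LHY and PRR7, and in 1 of the 2 G-boxes of PRR9, it overlaps an ABA-response element spelled ACGTGTC that is read on the same strand. The other G-box of PRR9 overlaps this spelling read on the opposite strand. This spelling was found in 5 of 10 windows (CCA1, LHY, PRR9, PRR7 and GI) against 4.33% of all. The G-box is in capitals in the sequences of the morning genes CCA1 and LHY and of PRR7.
CCA1, chr2:19245388-19245413, plus strand: gtgtatcagaCACGTGtcgacaaact
LHY, chr1:37936-37961, minus strand: acaatatcacCACGTGtcgatctgcg
PRR7, chr5:642216-642241, minus strand: cccaccattaCACGTGtcagttcaaa

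A second spelling of the ABA-response element, ACGTGGC, was present in PRR9, TOC1 and LUX, 3 of 10 windows against 4.08%. In LUX it overlaps the G-box. The drought-response element ACCGAC was present in PRR5 and LUX, 2 of 10 against 5.7%, and its form GCCGAC in 0 of 10 against 3.28%. The site of TCP factors, GGNCCCAC, was found in CCA1 and in 1.32% of all windows. The CCA1-binding site AAAAATCT was found in PRR5 (7.88% of all windows), and the LUX sites GATACG and GATTCG in ELF4 and PRR9 (5.54% and 9.58%). In the 1000 bases before the start, the G-box was found in 5 of 10 genes (14.8% of all). ACGTGTC was found there in 5 (8.51%), ACGTGGC in 6 (7.11%), ACCGAC in 2 (15.2%) and GCCGAC in 1 (8.72%). The TCP site was found there in 1 (2.46%), the CCA1-binding site in 3 (21.1%), GATACG in 2 (16.9%) and GATTCG in 6 (28.2%). These are matches of letters and show neither binding nor its effect.

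The core genes held 0.0338% of all reads in the control, 0.0546% and 0.0495% at 1 h and 3 h of ABA, and 0.0849% and 0.0729% at 1 h and 3 h of dehydration, out of 163762670 to 204315702 reads per column. They were therefore well covered, with 222 (FKF1 in the control) to 31753 reads (GI after dehydration 1 h) per gene and column. Leaf markers (RCA, CAB2 and LHCA1), root markers, the phloem marker SUC2 and guard cell markers were all detected in every column, as the label of whole seedlings has it. The summed FPKM (the authors' value, scaled for transcript length and library size) of the 3 leaf markers was lowest after ABA 3 h, at 4720, and highest in the control, at 10400. That of 5 root markers ran from 43.9 after dehydration 3 h to 86.8 in the control, and that of 3 guard cell markers from 19.6 after ABA 1 h to 32.6 after dehydration 1 h. Guard cell and root markers did not move together within their lists, so their sums do not stand for a cell type. After ABA 3 h the log2 ratios to the control were −2.11 for MYB60, −0.36 for FAMA and 0.65 for KAT1, all guard cell markers. Those of the root markers ran from −1.24 (PHT1;1) to 0.08 (COBL9). None of these markers was at 0, and their part in the clock values was not tested. In whole seedlings, fewer cells of a type and less RNA per cell cannot be told apart.

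Against the control, PRR5, TOC1, ELF4, LUX, GI and FKF1 had log2 ratios above 0 in all 4 treated columns and LHY below 0, though not each of these was past 2-fold. CCA1, PRR9, PRR7 and LHY had higher log2 ratios at 1 h than at 3 h of either treatment. The limit for calling a gene higher or lower was a 2-fold ratio of CPM. After ABA 1 h, 5 of 10 members were 2-fold higher (FKF1, PRR9, PRR5, ELF4 and GI) and 0 lower, beside 4.54% and 5.13% of all measured genes. After ABA 3 h, 5 were higher (FKF1, ELF4, PRR5, GI and TOC1) and 2 lower (LHY and CCA1), beside 9.12% and 7.79%. After dehydration 1 h, 6 were higher (PRR5, FKF1, PRR9, ELF4, GI and TOC1) and 0 lower, beside 7.73% and 5.62%. After dehydration 3 h, 7 were higher (FKF1, ELF4, PRR5, PRR9, GI, TOC1 and LUX) and 1 lower (LHY), beside 10.5% and 6.49%. The median log2 ratio of the members was 0.95, 1.10, 1.63 and 1.73 in this order, against 0.02, 0.01, −0.01 and −0.02 for all measured genes. The 4 comparisons share the control column.

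**Figure D1:**
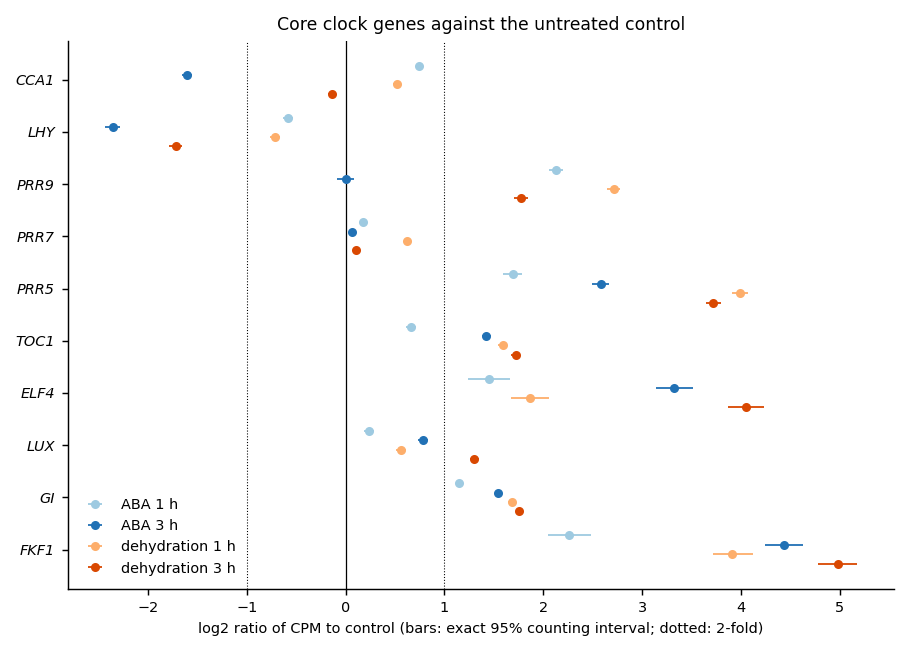
Log2 ratio of CPM to the control (horizontal axis) for the 10 core clock genes (rows) in the 4 treated conditions (colours), with exact 95% counting intervals as bars, which cover counting error only, and dotted lines at 2-fold. LHY lies left of 0 in all 4 conditions and CCA1 after ABA 3 h and dehydration 3 h, while PRR5, TOC1, ELF4, LUX, GI and FKF1 lie right of 0 in all 4.

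The dawn factors CCA1 and LHY are close relatives with overlapping functions, yet they differed at 1 h. The level of CCA1 was 32.6 FPKM in the control, 53.8 and 10.4 at 1 h and 3 h of ABA, and 45.8 and 29.1 at 1 h and 3 h of dehydration. CCA1 was thus highest at 1 h in both treatments and lowest after ABA 3 h. The level of LHY was 18.4 FPKM in the control, 12.1 and 3.53 at 1 h and 3 h of ABA, and 11.1 and 5.49 at 1 h and 3 h of dehydration. LHY was thus highest in the control and lower at 3 h than at 1 h.

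At 1 h, CCA1 had a log2 ratio to the control of 0.74 (exact 95% counting interval 0.71 to 0.77) after ABA and of 0.52 (0.48 to 0.55) after dehydration. LHY had −0.58 (−0.63 to −0.53) and −0.71 (−0.76 to −0.66), so the pair lay on opposite sides of the control, each by less than 2-fold. At 3 h of dehydration CCA1 was within 1.10-fold of the control while LHY was 3.30-fold below it. The FPKM of CCA1 over that of LHY was 1.77 in the control, 4.45 and 2.96 at 1 h and 3 h of ABA, and 4.13 and 5.30 at 1 h and 3 h of dehydration. The pair therefore stood farther apart in each treated column than in the control.

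**Figure D2:**
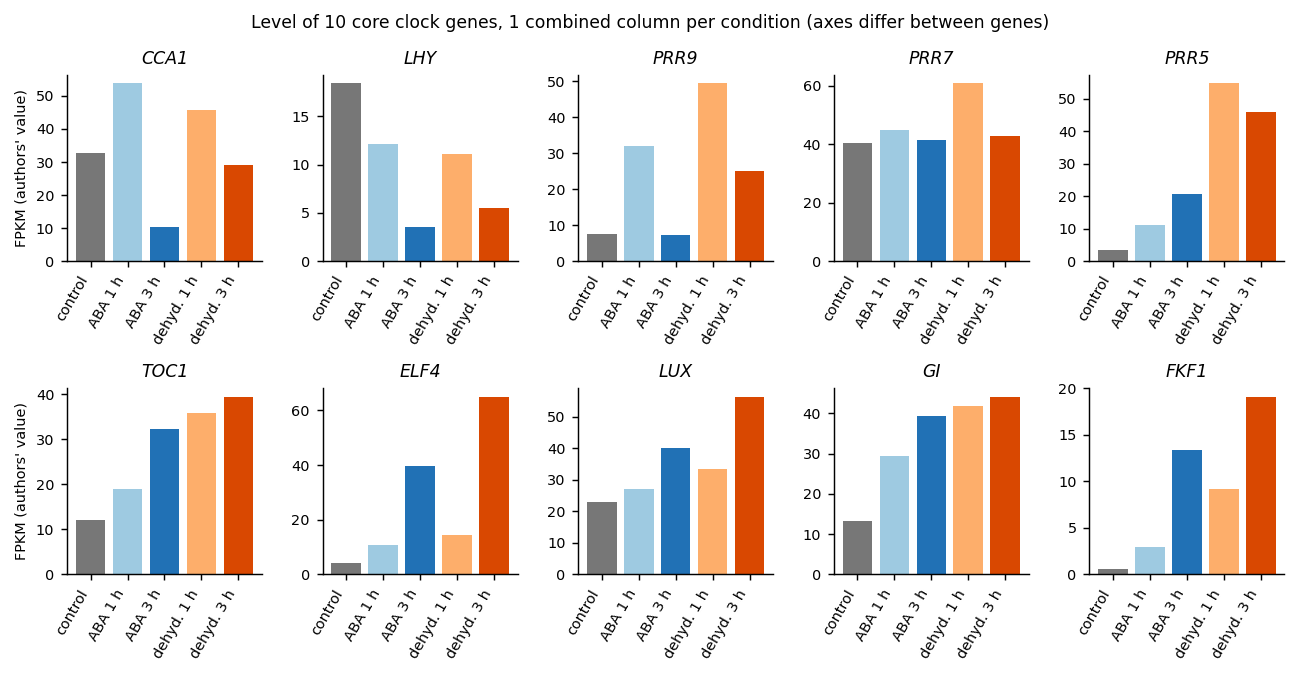
FPKM, the authors' value, of the 10 core clock genes (panels, each with its own vertical axis from 0) in the 5 conditions (bars), with 1 combined column per condition and so no error bars. CCA1, PRR9, PRR7 and LHY are higher at 1 h than at 3 h in both treatments. LHY is highest in the control at 18.4 FPKM, and FKF1 goes from 0.62 in the control to 19.1 after dehydration 3 h.

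The pseudo-response regulators, which repress CCA1 and LHY, ran from a nearly even level in PRR7 to a wide span in PRR5. PRR9, the morning member, had 7.60 FPKM in the control, 32.0 and 7.33 at 1 h and 3 h of ABA, and 49.4 and 25.1 at 1 h and 3 h of dehydration. It was 4.39-fold above the control after ABA 1 h and back at 11.7 CPM, the control's CPM, after ABA 3 h. After dehydration it was 6.53-fold higher at 1 h and still 3.41-fold higher at 3 h.

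PRR9 shares much of its exon sequence with other places in the genome: 41.1% of its exonic runs of 31 bases occur elsewhere in TAIR10.1. The gene that shares the most of them is AT2G46670, annotated in the tables as a CCT motif family protein. The sources used here do not say how the counting treated such reads, so the split between the 2 genes is uncertain. AT2G46670 had 363 reads in the control, 1586 and 453 at 1 h and 3 h of ABA, and 2682 and 1968 at 1 h and 3 h of dehydration. It thus followed a course like that of PRR9, at 14.9% to 21.7% of their joint reads. With the reads of both genes summed, the log2 ratios to the control were 2.15 and 0.03 at 1 h and 3 h of ABA and 2.72 and 1.89 at 1 h and 3 h of dehydration, against 2.13, 0.00, 2.71 and 1.77 for PRR9 alone.

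PRR7, the next regulator in the daily order, was the most even of the 10. It had 40.3 FPKM in the control, 44.7 and 41.3 at 1 h and 3 h of ABA, and 60.8 and 42.8 at 1 h and 3 h of dehydration. Its highest column was 1.53-fold its lowest, a smaller span than the median of 1.63 for all measured genes. Dehydration 1 h was the column that stood apart, at a log2 ratio to the control of 0.62 (0.59 to 0.64).

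PRR5, which peaks later in the day, had 3.53 FPKM in the control, 11.2 and 20.7 at 1 h and 3 h of ABA, and 54.8 and 46.1 at 1 h and 3 h of dehydration. Both dehydration columns lay above both ABA columns, and those above the control. PRR5 was 3.22-fold and 5.96-fold above the control at 1 h and 3 h of ABA, and 15.9-fold and 13.2-fold at 1 h and 3 h of dehydration. In dehydration 1 h against the control, PRR5 had the 64th highest ratio of 18873 measured genes and FKF1 the 67th.

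TOC1, the evening member of the family, had 12.1 FPKM in the control, 18.9 and 32.4 at 1 h and 3 h of ABA, and 35.8 and 39.5 at 1 h and 3 h of dehydration. Its ratio to the control was already 3.00-fold after dehydration 1 h, against 1.58-fold after ABA 1 h. The FPKM of LHY over that of TOC1 was 1.52 in the control. It was 0.639 and 0.109 at 1 h and 3 h of ABA, and 0.309 and 0.139 at 1 h and 3 h of dehydration. The order of this morning and evening pair was thus turned round in each treated column.

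The evening complex was represented by ELF4, a small protein that its partners need for activity, and LUX, its DNA-binding member. ELF4 had 4.02 FPKM in the control, 10.7 and 39.8 at 1 h and 3 h of ABA, and 14.4 and 65.0 at 1 h and 3 h of dehydration. Its 3 h columns both lay above its 1 h columns, with log2 ratios to the control of 3.32 (3.14 to 3.51) after ABA 3 h and 4.05 (3.87 to 4.23) after dehydration 3 h. LUX had 23.0 FPKM in the control, 27.0 and 40.2 at 1 h and 3 h of ABA, and 33.6 and 56.4 at 1 h and 3 h of dehydration. LUX kept this same order of columns over a narrower range, and its only ratio to the control past 2-fold was 2.47-fold after dehydration 3 h. LUX over ELF4 in FPKM was 5.73 in the control, 1.01 after ABA 3 h and 0.867 after dehydration 3 h.

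GI, a large nuclear and cytoplasmic protein of the evening, had 13.3 FPKM in the control, 29.5 and 39.4 at 1 h and 3 h of ABA, and 41.7 and 44.1 at 1 h and 3 h of dehydration. It was 2.22-fold to 3.37-fold above the control, and its dehydration columns were nearly level with each other. FKF1, an F-box protein that with GI removes repressors of flowering, had 0.62 FPKM in the control, 2.90 and 13.4 at 1 h and 3 h of ABA, and 9.20 and 19.1 at 1 h and 3 h of dehydration. FKF1 spanned the widest range of the 10, with its highest column 31.5-fold its lowest, a span wider than that of 98.9% of measured genes. At 1 h it was 4.79-fold above the control after ABA and 15.1-fold after dehydration. With 1 added to FPKM, the 4 log2 ratios of FKF1 to the control were 1.27, 3.16, 2.65 and 3.63 in place of 2.26, 4.43, 3.91 and 4.98, since its control level is below 1 FPKM. GI over FKF1 in FPKM was 21.5 in the control and 2.31 after dehydration 3 h.

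Most of the other genes share little sequence with the rest of the genome. Exonic runs of 31 bases found elsewhere made up 3.84% in FKF1, 0.648% in LUX, 0.382% in LHY and 0% in CCA1, PRR7, PRR5, TOC1, ELF4 and GI. LUX overlaps AT3G46650 and FKF1 overlaps AT1G68060, each on the opposite strand. The libraries were strand-specific, but the sources used here do not say whether the counting used strand.

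In order of level per length, PRR7 led in the control with 40.3 FPKM, followed by CCA1 with 32.6, and FKF1 was last. After ABA 1 h CCA1 led with 53.8 FPKM. After ABA 3 h PRR7 with 41.3, LUX with 40.2, ELF4 with 39.8 and GI with 39.4 stood within 1.05-fold of each other, and LHY was last with 3.53. After dehydration 1 h PRR7 led with 60.8, ahead of PRR5 with 54.8. After dehydration 3 h ELF4 led with 65.0, ahead of LUX with 56.4, and LHY was last with 5.49. With no replicate error, neighbours in these orders cannot be said to differ. The orders, and the FPKM ratios between genes, also rest on the transcript lengths behind the FPKM, which were not known here. After dehydration 3 h ELF4 had 25.3 CPM with 619 annotated exon bases, LUX 71.7 CPM with 3916 and PRR5 97.2 CPM with 1677. Which gene leads can therefore depend on the lengths used.

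The step from 1 h to 3 h within a treatment leaves the control out. In the ABA columns, 2 members were 2-fold higher at 3 h than at 1 h (FKF1 at 4.50-fold and ELF4 at 3.67-fold) and 3 were lower (CCA1 at 5.05-fold, PRR9 at 4.39-fold and LHY at 3.42-fold), beside 4.92% and 2.39% of measured genes. CCA1 had the 32nd lowest ratio of 18874 genes in this step and PRR9 the 49th. In the dehydration columns 2 members were higher at 3 h (ELF4 at 4.55-fold and FKF1 at 2.09-fold) and 1 lower (LHY at 2.01-fold), beside 5.34% and 1.48%. The calls of LHY and FKF1 there lie close to the limit. With 1 added to FPKM the log2 ratio of LHY was −0.89 and that of FKF1 0.98, and with total-count scaling that of FKF1 was 0.96 and that of PRR9 passed the limit at −1.04.

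The steps of both treatments went the same way in 9 of 10 members, or 90%, against 55.7% of 18873 measured genes. These steps share no column, but both also cover the same passage of time. PRR5 was the exception, at a log2 ratio of 0.89 (0.84 to 0.94) from ABA 1 h to 3 h and of −0.27 (−0.29 to −0.24) from dehydration 1 h to 3 h. The count of 9 uses signs alone, and the dehydration steps of GI and TOC1 were only 0.07 and 0.13. With total-count scaling the dehydration step of GI was below 0, so that GI was then an exception too.

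**Figure D3:**
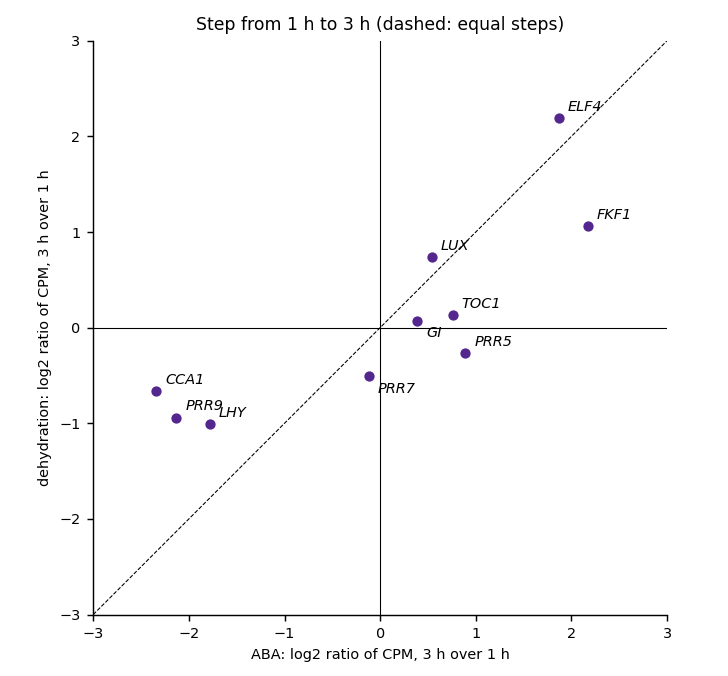
Log2 ratio of CPM at 3 h over 1 h in ABA (horizontal axis) against the same in dehydration (vertical axis), 1 point per core clock gene, with a dashed line where both steps are equal. CCA1, PRR9 and LHY lie at the lower left and above the line, ELF4 and FKF1 at the upper right, and PRR5 alone below 0 in dehydration and above 0 in ABA.

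The size of the steps differed between the treatments. The dehydration step minus the ABA step was 1.68 on the log2 scale for CCA1 (approximate 95% counting interval 1.62 to 1.74) and 1.20 (1.12 to 1.27) for PRR9, as both were lower at 3 h of ABA by more than at 3 h of dehydration. It was −1.16 (−1.22 to −1.09) for PRR5, which stepped up in ABA and down in dehydration. It was −1.11 (−1.22 to −0.99) for FKF1, where ABA had the larger of 2 upward steps. With 1 added to FPKM the value of FKF1 was −0.91. These 4 members were past 2-fold, 2 in each direction, beside 5.71% of measured genes higher and 4.59% lower. Past 3-fold there was 1, CCA1. LHY had 0.77, TOC1 −0.63, PRR7 −0.40, ELF4 0.31, GI −0.31 and LUX 0.20, with a median over the 10 of −0.05 against −0.03 for all measured genes.

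Set against ABA at the same hour, dehydration had higher levels of several core genes. At 1 h, PRR5 was 4.93-fold higher and FKF1 3.15-fold higher after dehydration, so 2 of 10 were higher and 0 lower, beside 5.4% and 3.5% of measured genes. TOC1 came next at 1.90-fold, while CCA1 and LHY were slightly lower, at log2 ratios of −0.22 (−0.25 to −0.19) and −0.13 (−0.19 to −0.08). At 3 h, PRR9 was 3.41-fold, CCA1 2.74-fold and PRR5 2.21-fold higher after dehydration, so 3 of 10 were higher and 0 lower, beside 9.15% and 6.82%. The genes with the smallest difference at 3 h were PRR7 at 1.03-fold, GI at 1.16-fold and TOC1 at 1.23-fold. The members' median log2 ratio was 0.48 at 1 h and 0.59 at 3 h, against −0.01 and −0.02 for all measured genes.

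**Figure D4:**
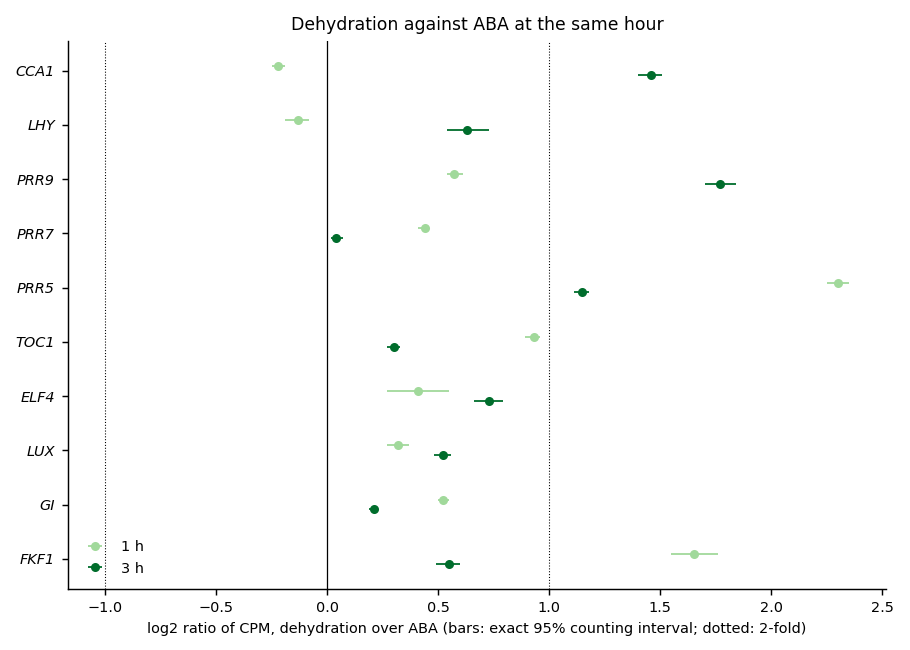
Log2 ratio of CPM in dehydration over ABA (horizontal axis) at 1 h and at 3 h (colours) for the 10 core clock genes (rows), with exact 95% counting intervals as bars and dotted lines at 2-fold. PRR5 and FKF1 lie past 2-fold at 1 h, and PRR9, CCA1 and PRR5 at 3 h, all on the side of dehydration.

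Likeness of pattern was measured as the root-mean-square difference of mean-centred log2 CPM over the 5 columns, among 15490 other genes of at least 5 CPM on average. TOC1 and GI were the closest pair of members, at 0.18, and each was the 14th or 16th nearest gene of the other. CCA1 and LHY were each other's nearest member but stood at 0.56, where LHY was the 172nd nearest gene to CCA1. FKF1 and ELF4 paired at 0.66, where ELF4 was the 15th nearest gene to FKF1, and the most distant members were FKF1 and LHY, at 2.55. The nearest member to PRR7 was LUX, at 0.49, but LUX was only the 12010th nearest gene to PRR7. The measure tends to be larger for genes of wide span, so distances do not compare evenly between even and wide-ranging genes. Over all genes, the nearest to CCA1 was the exocyst gene EXO70H2 (0.238), to LHY the lipase-family gene AT1G33811 (0.106), to TOC1 the gene AT5G42050 (0.070) and the dehydration-responsive ERD4 (0.072), and to GI the protease-family gene AT2G39710 (0.092). PRR5 lay nearest to ERD7 (0.288), ELF4 to WSD1 (0.227), LUX to CW9 (0.053), PRR7 to AT1G10890 (0.019), FKF1 to the jasmonate-inactivating CYP94B3 (0.374) and PRR9 to AT2G46670 (0.236), the gene that shares its sequence.

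Of 24 other genes with clock functions, at 1 h of ABA 4 were 2-fold higher and 0 lower, and at 3 h 6 were higher and 6 lower. In dehydration 4 were higher and 0 lower at 1 h, and 6 higher and 3 lower at 3 h. Of all measured genes, 4.54% were higher and 5.13% lower at 1 h of ABA, 9.12% and 7.79% at 3 h, 7.73% and 5.62% at 1 h of dehydration, and 10.5% and 6.49% at 3 h. The median log2 ratios of the 24 genes were −0.07, 0.02, −0.01 and 0.18 in this order, against 0.02, 0.01, −0.01 and −0.02 for all measured genes. COR27, a regulator of evening clock genes also induced by cold, had 57 reads in the control and 6357 after dehydration 3 h. Its log2 ratio there was 6.79 (6.41 to 7.19), and it was 5.06 (4.68 to 5.47) after ABA 3 h. PRR3, a further relative of TOC1, was 6.03-fold above the control at 3 h of ABA and 3.86-fold at 3 h of dehydration. BOA, the LUX homologue, was 7.49-fold and 4.17-fold above it, the demethylase gene JMJD5 5.65-fold and 4.56-fold. The locus AT4G33980 had log2 ratios of 2.02 after ABA 3 h and 2.81 after dehydration 3 h.

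The lower side held RVE8, LNK2 and CHE at 3 h of both treatments. RVE8, a MYB factor that activates evening genes, was 5.29-fold lower after ABA 3 h and 2.72-fold lower after dehydration 3 h. Its co-activators LNK2, LNK3 and LNK4 were 3.77-fold, 4.88-fold and 3.23-fold lower after ABA 3 h. After dehydration 3 h LNK2 was 2.41-fold lower, while LNK3 and LNK4 had log2 ratios of −0.14 and −0.41. LNK1 was on the other side, at 0.92 after ABA 3 h. The locus AT5G52660, annotated in the tables as a Homeodomain-like protein, was 3.95-fold higher after dehydration 3 h, with log2 ratios of 0.52 to 0.87 in the other 3 comparisons. RVE4 and CHE, a TCP factor that binds the CCA1 promoter, had log2 ratios of −1.43 and −1.11 after ABA 3 h. ELF3, the partner of ELF4 and LUX, lay between 0.27 and 0.84 in the 4 comparisons. ZTL, the relative of FKF1 that degrades TOC1, lay between −0.19 and 0.06, while FKF1 lay between 2.26 and 4.98.

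**Figure D5:**
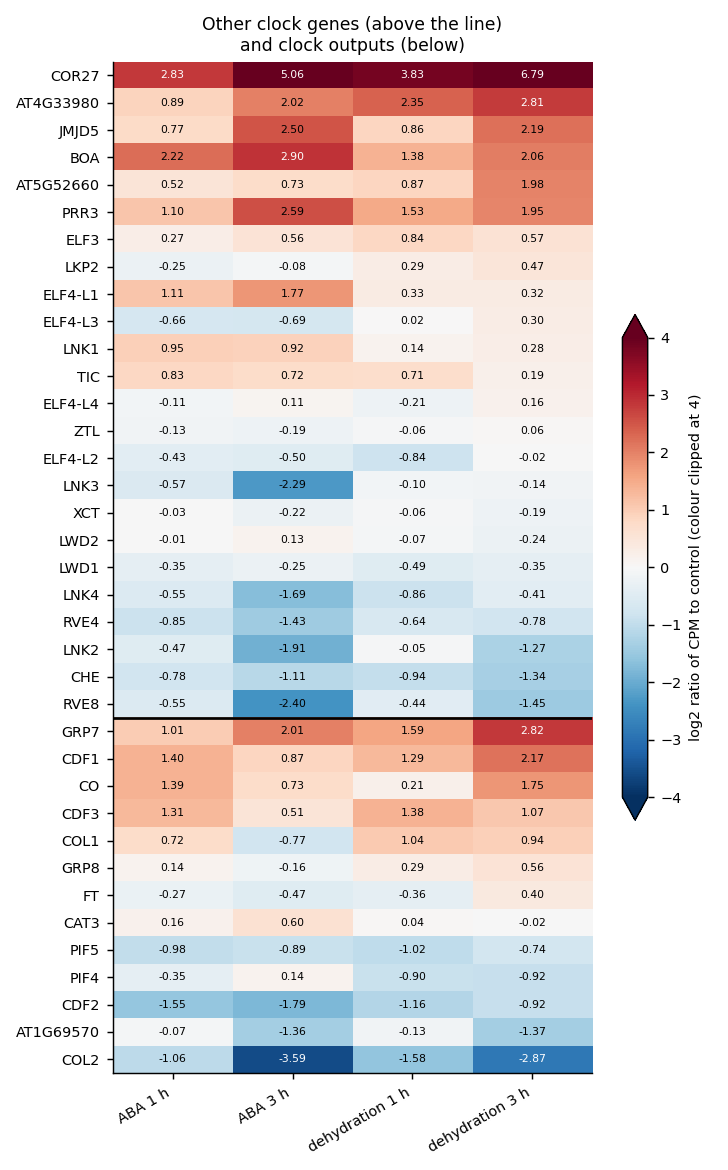
Log2 ratio of CPM to the control (colour and printed value) of 24 other clock genes above the line and 13 clock-controlled output genes below it, in the 4 treated conditions (columns). COR27 has the highest values, up to 6.79, COL2 the lowest, down to −3.59, and the RVE8 and LNK2 rows are lower at 3 h than at 1 h in both treatments.

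Among 13 genes that the clock controls, at 1 h of ABA 4 were higher and 2 lower, and at 3 h 1 was higher and 3 lower. In dehydration 4 were higher and 3 lower at 1 h, and 4 higher and 2 lower at 3 h. The shares over all measured genes in these 4 comparisons are those given for the other clock genes, so that 1 of 13 higher after ABA 3 h stands beside 9.12%. The medians of the 13 were 0.14, −0.16, 0.04 and 0.40, against 0.02, 0.01, −0.01 and −0.02. The RNA-binding protein gene GRP7, which feeds back on its own rhythm, was 4.04-fold above the control at 3 h of ABA and 7.05-fold at 3 h of dehydration, while its relative GRP8 had log2 ratios of −0.16 and 0.56. CDF1, a flowering repressor that FKF1 and GI degrade, was 4.49-fold higher after dehydration 3 h. CDF2, of the same family, was 3.45-fold lower after ABA 3 h. COL2, a relative of CO, was 12.0-fold lower after ABA 3 h and 7.33-fold lower after dehydration 3 h. CO itself, the activator of FT in long days, had 132 reads in the control and was 3.37-fold higher after dehydration 3 h, and FT lay between −0.47 and 0.40.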

How the data were processed

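The 15 libraries, 3 per condition, were stranded mRNA libraries sequenced as single reads, with libraries multiplexed for sequencing, per the labels' protocols. The authors deposited a table of raw read counts and a table of FPKM values. In both, the file headers name a single column for each condition, and the sources used here do not say how the data of its 3 libraries were combined into it. The submitters' processing notes name the build TAIR10 and the tools DESeq2, Cuffdiff, Cufflinks 2.1.1 and TopHat2 2.0.8, without their roles.

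Here, counts were scaled to CPM with TMM factors (edgeR 4.0.16, R 4.3.3) from the 22186 rows that filterByExpr keeps. For ratios, a count below 3 was raised to 3, and a gene with neither count above 3 got no ratio. A single cell with 0 reads but an FPKM of 1 or more was treated as missing. Exact (Clopper-Pearson) 95% intervals (SciPy 1.17.1) cover counting error only, and the labels name no molecular identifiers. The interval of a difference of steps is a normal approximation. edgeR's test, planned for tables with a column per library, could not be run.

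The members and lists were chosen with earlier results of these data known. Named genes are the 10 members, up to 4 highest and 4 lowest of each clock list per comparison with the control, and up to 2 nearest genes per member. ELF3, ZTL, LNK1, GRP8, FT and values given for contrast were named after their values were seen. Of the list genes, 3 are called by locus code, as neither the tables nor RefSeq name them, and the leaf marker RBCS1A was not analysed here. Sequences, overlaps and shared exon runs come from RefSeq TAIR10.1. The ratios and intervals were tested on simulated counts, drawn from the control column with counting error only and with the same scaling. This checks the calculation and does not cover the spread between replicates.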

Additional observations from a re-analysis of the deposited data

Results flagged for a closer look

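PRR5 was picked out because its step from 1 h to 3 h went up in the ABA columns and down in the dehydration columns, with both counting intervals clear of 0. The dehydration step minus the ABA step was −1.16 on the log2 scale. PRR5 stood at 23.7 and 43.9 CPM after ABA 1 h and 3 h and at 117 and 97.2 CPM after dehydration 1 h and 3 h, beside 7.37 CPM in the control. With 1 combined column per condition the difference was not tested against replicates.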

How the results depend on the processing

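No paired analysis was possible because the tables hold 1 combined column per condition, and for the same reason no replicate could be left out. Of 90 member values (10 genes in 8 comparisons and the difference of steps), no value past 2-fold changed sign under RLE, upper-quartile or total-count scaling or with 1 or 0.1 added to FPKM. In this order, the sign changed for 1, 1, 1, 0 and 0 of the 90 values, and the side of the 2-fold limit for 0, 0, 2, 3 and 1. The numbers of members 2-fold apart held within 1.5 times except as follows. At a 3-fold limit they were 3 for ABA 1 h against control (5 at 2-fold), 1 for dehydration 3 h against dehydration 1 h (3 at 2-fold) and 1 for dehydration 3 h against ABA 3 h (3 at 2-fold). At a 1.5-fold limit the last of these was 5 and dehydration 3 h against dehydration 1 h was 6, where it was 1 with 1 added to FPKM. For the difference of steps, limits chosen after seeing the data gave 1 member at 3-fold and 6 at 1.5-fold (4 at 2-fold). Over all genes, ABA 3 h against ABA 1 h had 1380 genes 2-fold apart, 2261 with no filter and 880 where the mean CPM had to reach 5. Dehydration 3 h against dehydration 1 h had 1287, or 2094 with no filter. Dehydration 1 h against ABA 1 h had 1680, or 2799 with no filter. Dehydration 3 h against ABA 3 h had 3015, 4761 with no filter and 1997 where it had to reach 5. The filters change the number of genes counted; the cause of the other changes was not tested. Total-count scaling moved the median of all genes from −0.01 to 0.11 in dehydration 1 h against control and from −0.01 to −0.12 in dehydration 3 h against dehydration 1 h, where 67.1% of the genes apart were then higher in place of 78.2%. In ABA 3 h against ABA 1 h the share higher was 67.2%, and was 57.5% with upper-quartile scaling, 57.3% with total-count scaling and 78.8% with 1 added to FPKM. In ABA 3 h against control it was 53.9%, and 46.5% with upper-quartile scaling. Depth does not limit the members, of which each had at least 222 reads in every column. What limits every value is the lack of replicate columns. Comparisons with the control and steps from 1 h to 3 h also lack an untreated sample at 1 h and 3 h. No condition is labelled as methanol alone, and ABA in liquid medium and dehydration on filter paper also differ in handling.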
